A study of Homo sapiens with 4 samples.

Results

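Interferon-stimulated genes encode the effectors with which a cell meets a virus, and 50 of them, chosen as a fixed list of symbols, are described here in HCT116 cells with added FOXD2. All 50 symbols were matched to a gene identifier among the 60683 in the tables. HCT116 is an established human colorectal carcinoma line, here from the American repository ATCC. The FOXD2 cells had received pSin lentivirus carrying the whole coding region of the forkhead factor FOXD2, and the empty vector cells pSin lentivirus without an insert. There were 2 polyA RNA libraries of each kind, both kinds of cells were stable transduced lines kept in puromycin, and no interferon or virus other than the vector is named in the labels. The labels do not say whether the libraries of a group came from separate cultures or transductions, so the p-values measure the spread between these libraries, which may be technical.

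Type I and type III interferons bind receptors whose kinases JAK1 and TYK2 phosphorylate STAT proteins, among them STAT2, which act with IRF9 in a factor that binds the interferon-stimulated response element (ISRE) in promoters. Type II interferon acts through another element, the gamma-activated site (GAS). The induced proteins bind or degrade foreign RNA, block entry and budding of viruses, attach the modifier ISG15 to proteins, or feed back on the pathway. Epithelial cells such as those of the colon can both make and answer interferons, and tumour lines differ in how much of the programme they keep.

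The libraries held between 14231338 and 15535817 counts assigned to genes. FOXD2 itself had 8195 and 7011 counts in FOXD2 cells and 49 and 42 counts in empty vector cells, which is the order the labels give. The epithelial markers EPCAM, CDH1, KRT8, KRT18 and KRT19 were present in all libraries, whereas VIL1 and KRT20, markers of mature enterocytes, had between 0 and 27 counts. FOXD2 replicate 1 stood apart in 3 abundant RNAs made without a polyA tail (RN7SL1, RN7SL2 and RN7SK), which summed there to 115 CPM (counts scaled to library size), against 55.2 in FOXD2 replicate 2 and 28.1 and 26.1 in the empty vector libraries. Mitochondrial mRNA took 8.17% and 8.62% of counts in FOXD2 cells and 6.79% and 6.80% in empty vector cells, and its part in the results was not tested. FOXD2 replicate 2 stood apart in the interferon-stimulated genes themselves, as given below.

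ISRE-like letters were looked for in the promoters of the 50 genes, since this element is what most of them are known to share. Windows from 250 bases before to 50 bases after a gene start came from RefSeq (GRCh38.p14), and 40 of the 50 genes had at least 1. The core searched was GAAA, any 2 bases and GAAA again, on both strands, and overlapping matches were each counted. It was found in 27 of the 40 genes (67.5%), against 4.38% of all 27305 genes with a window, and 14 of the 40 (35.0%) held at least 2 matches in a window, against 0.311% of all genes. A shorter form with a single base between the repeats, GAAANGAAA, whose search was added after the values were seen, was found in 16 of the 40 genes and in 3.87% of all genes.

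The stretches below, each printed 5′ to 3′ on the strand of its gene, were chosen because the genes beside them behaved differently. The first 5 belong to genes that rose in FOXD2 cells. They lie at chr1:1013374-1013409 (plus strand) for ISG15, chr10:89392497-89392539 (plus) for IFIT1, chr1:27672266-27672358 (minus) for IFI6 and chr1:78649761-78649790 (plus) for IFI44, and at chr3:122564322-122564351 for the pair DTX3L and PARP9. That pair is transcribed away from a shared start region and overlaps by 340 bases, so the same letters stand in both windows, shown here on the plus strand of DTX3L. Capitals mark the bases of ISRE core matches, read on either strand.
ISG15: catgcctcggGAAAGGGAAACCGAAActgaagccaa
IFIT1: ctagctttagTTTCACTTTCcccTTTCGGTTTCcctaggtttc
IFI6: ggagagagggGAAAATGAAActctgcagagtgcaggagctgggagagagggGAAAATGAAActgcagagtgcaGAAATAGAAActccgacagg
IFI44: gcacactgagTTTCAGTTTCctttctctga
DTX3L: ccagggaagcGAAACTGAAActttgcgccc
IFIT5 and HERC5 each held 3 core matches, as many as IFI6, but IFIT5 did not pass the test and HERC5 fell. Their stretches lie at chr10:89414513-89414583 (plus strand) and chr4:88456984-88457064 (plus strand).
IFIT5: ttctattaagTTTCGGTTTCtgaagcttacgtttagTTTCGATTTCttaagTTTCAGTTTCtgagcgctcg
HERC5: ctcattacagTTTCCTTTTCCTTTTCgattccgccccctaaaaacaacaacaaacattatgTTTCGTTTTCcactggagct
OAS1 and TRIM25 held no core match but the shorter form, marked here in capitals, at chr12:112906935-112906963 (plus strand) and chr17:56914034-56914062 (minus strand). OAS1 had the largest rise fitted with edgeR among the 40 genes tested, and TRIM25 did not pass the test. However, OAS1 could be tested only because it was high in FOXD2 cells, with 3 counts in all in empty vector cells. With limma on log2(TPM + 1) OAS1 was at 1.90 on the log2 scale, below IFI6 at 3.23.
OAS1: cccttctgagGAAACGAAAccaacagcag
TRIM25: tcgagctaggTTTCGTTTCctcggcggcc

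Most of the effectors were higher with FOXD2. Of the 50 genes, 40 passed the filter on low counts and were tested, 34 of them were higher in FOXD2 cells, 2 were lower and 4 did not pass the threshold of edgeR adjusted p under 0.05 over all genes tested. Over all tested genes 53.5% passed, 27.2% higher and 26.4% lower. At least 2-fold rises were found for 26 of the 40, where 8.2% of all tested genes rose as much. While 2.8% of all tested genes fell as much, none of the 40 did, the lowest log2 value being -0.55 with edgeR, -0.57 with DESeq2 and -0.37 with limma. The median log2 fold change of FOXD2 over empty vector was 1.37 for the 40 genes and 0.01 for all tested genes. In 35 of the 40 genes the CPM of each FOXD2 library lay above that of each empty vector library, which held for 38.9% of all tested genes.

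Some of these genes could be tested only because they were high with FOXD2. Of the 40, 8 (BST2, OAS1, MX1, GBP2, PARP10, TRIM22, IFI44 and EPSTI1) were above the filter's level of 0.676 CPM in the FOXD2 libraries alone, so a rise was built into their passing. Of the other 32, 26 were higher, 2 lower and 4 not past the threshold, and 18 rose at least 2-fold. These counts include IFIT2 and IFI27, which had 9 counts each in empty vector replicate 1 and exceeded that level only in replicate 2 of that group. The filter asks for 2 libraries, so both also needed a FOXD2 library to pass, and a rise was partly built into their passing. Among all genes over that level in an empty vector library, 26% were higher and 6.59% at least 2-fold higher. The summed level of all 50 genes was 2388 and 2780 TPM (a level per transcript length, scaled to each library) in FOXD2 cells and 1230 and 1196 TPM in empty vector cells. IFITM3, IFITM2, LGALS3BP and ISG15 made up most of this sum, and without IFITM3, the most abundant of the 50, it was 1265 and 1473 TPM against 661 and 630 TPM.

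**Figure D1:**
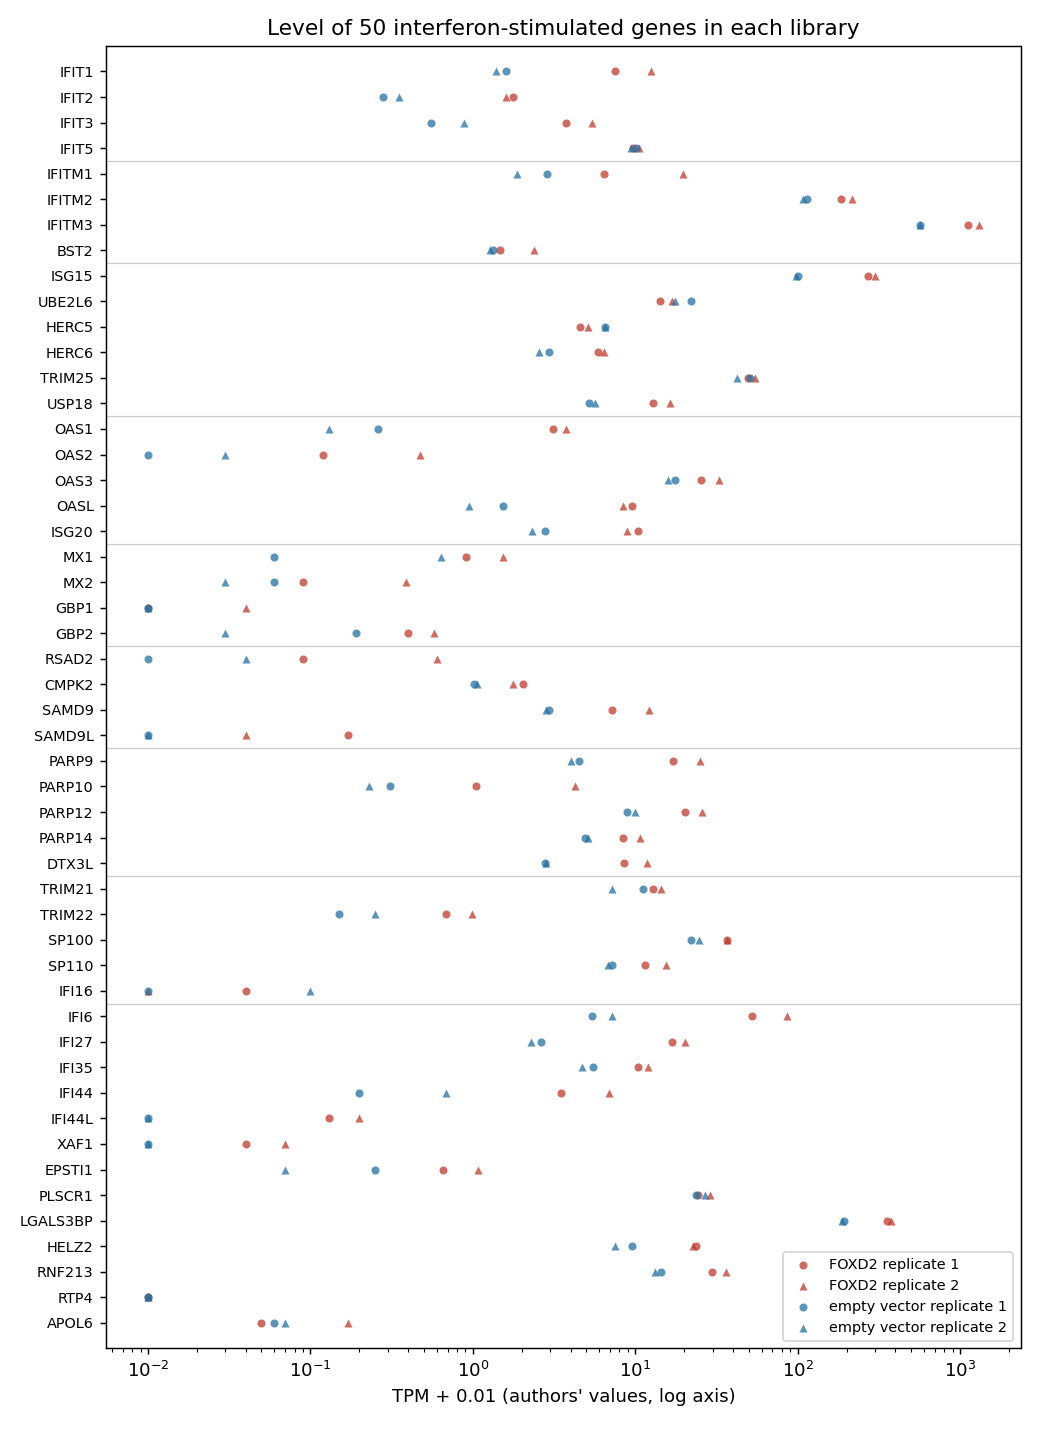
TPM + 0.01 on a log axis for the 50 genes, ordered by role and divided by grey lines; red marks are FOXD2 libraries, blue marks empty vector libraries, circles replicate 1 and triangles replicate 2. IFITM3 lies highest, at 1123 and 1307 TPM in FOXD2 cells and 569 and 566 TPM in empty vector cells, IFIT5 does not separate by group, and RTP4 is at 0 in all 4 libraries.

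IFIT proteins bind foreign RNA: IFIT1 recognises caps that lack methylation, IFIT2 and IFIT3 act as its partners, and IFIT5 binds RNA with a terminal phosphate. IFIT1 had 7.47 and 12.5 TPM in FOXD2 cells and 1.58 and 1.38 TPM in empty vector cells (log2 fold change of FOXD2 over empty vector 2.704, SE 0.37, edgeR adjusted p = 0.0086; later values in brackets are on the same scale). IFIT2 had 1.75 and 1.60 TPM against 0.27 and 0.34 TPM (2.44, SE 0.34). IFIT3 had 3.75 and 5.42 TPM against 0.54 and 0.87 TPM (2.64, SE 0.27). The groups did not overlap in any of these, and the rises were of similar size. IFIT2, over the filter's level in empty vector replicate 2 but not in replicate 1, also needed a FOXD2 library to pass. IFIT5, whose gene begins 8099 bases beyond the end of IFIT1, had 9.63 and 10.6 TPM in FOXD2 cells and 10.1 and 9.37 TPM in empty vector cells (0.01, SE 0.10, edgeR adjusted p = 0.92). Among the IFIT genes it was the most abundant in empty vector cells, and IFIT1 stood at 0.776 and 1.18 times its TPM in FOXD2 cells and at 0.156 and 0.147 times in empty vector cells. LIPA is annotated on the opposite strand across IFIT1, IFIT2 and IFIT3, and the strand setting of the counting is not given in the sources used here, so a share of LIPA reads in these counts was not tested.

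IFITM proteins stop enveloped viruses from fusing with cell membranes, and BST2 (tetherin) holds budding virions at the surface. IFITM3 had 1123 and 1307 TPM in FOXD2 cells and 569 and 566 TPM in empty vector cells (1.07, SE 0.06, edgeR adjusted p = 9.7e-20). Its neighbour IFITM2 had 185 and 216 TPM against 114 and 108 TPM (0.80, SE 0.08). IFITM1 was much lower and spread widely, with 6.42 and 19.6 TPM against 2.85 and 1.87 TPM (2.37, SE 0.67, edgeR adjusted p = 0.032). All of them rose without overlap between groups, and the IFITM1 value was 2.96 without FOXD2 replicate 1 and 1.38 without FOXD2 replicate 2. The IFITM genes are close copies, and the deposited posterior SD of the count, which measures how uncertainly shared reads were assigned, was at most 7.78% of the count among the 50 genes with at least 10 counts, for IFITM1 in empty vector replicate 2. For IFITM2 and IFITM3 it was at most 0.27%. The annotated span of IFITM1 lies within that of IFITM2 on the same strand, so the split of reads between them is uncertain. BST2 was near the limit of detection, with 14 and 21 counts in FOXD2 cells and 7 and 6 in empty vector cells (1.36, SE 0.50, edgeR adjusted p = 0.019). That call was lost without FOXD2 replicate 2 (adjusted p = 0.27), without empty vector replicate 1 (0.087), without empty vector replicate 2 (0.17), with DESeq2 (0.27) and with limma on TPM (0.24).

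ISG15 is a ubiquitin-like modifier that UBE2L6 carries and that HERC5, the main ligase for it in human cells, attaches to new proteins, while USP18 removes it and damps receptor signalling. The modifier and its remover rose, and the carrier and the ligase fell. ISG15 had 271 and 301 TPM in FOXD2 cells and 99.8 and 97.9 TPM in empty vector cells (1.51, SE 0.08, edgeR adjusted p = 5.3e-23). USP18 had 12.9 and 16.3 TPM against 5.21 and 5.68 TPM (1.38, SE 0.15). Neither overlapped between groups. HERC5 had 4.53 and 5.12 TPM in FOXD2 cells and 6.48 and 6.54 TPM in empty vector cells (-0.55, SE 0.14, edgeR adjusted p = 0.00066), a fall without overlap whose call was lost with limma on TPM (-0.37, adjusted p = 0.088). UBE2L6 had 14.2 and 16.8 TPM against 22.1 and 17.6 TPM (-0.37, SE 0.14, edgeR adjusted p = 0.020). The UBE2L6 call was lost without FOXD2 replicate 1 (adjusted p = 0.11), without empty vector replicate 1 (0.32), with DESeq2 (0.19), with limma on TPM (0.10) and with library totals as the only scaling (0.068).

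HERC6, the paralogue of HERC5 that conjugates ISG15 in mice, lies on the same strand of chromosome 4 with 14005 bases between them, and it moved the other way. HERC6 had 5.88 and 6.37 TPM in FOXD2 cells and 2.94 and 2.56 TPM in empty vector cells (1.14, SE 0.15, edgeR adjusted p = 2.3e-09). The ratio of HERC6 to HERC5 in TPM was 1.30 and 1.24 in FOXD2 cells and 0.454 and 0.391 in empty vector cells. This pair was picked after its values were seen, and an exact permutation test of 2 libraries against 2 cannot go below p = 0.333 (two-sided). TRIM25, a ligase that activates the RNA sensor RIG-I and can also attach ISG15, had 49.3 and 54.3 TPM in FOXD2 cells and 51.2 and 42.5 TPM in empty vector cells (0.06, SE 0.06, edgeR adjusted p = 0.45). Its groups overlapped.

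**Figure D2:**
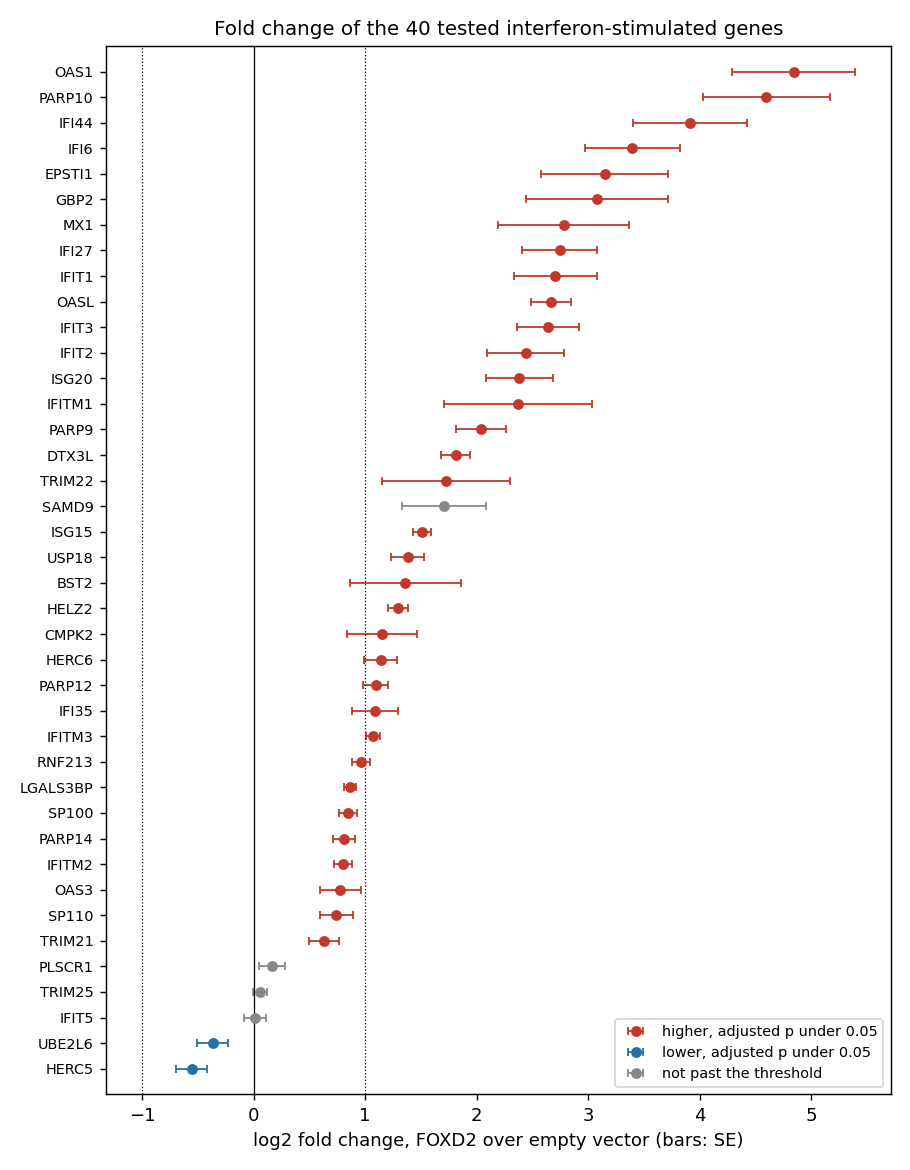
Fitted log2 fold change of FOXD2 over empty vector with its SE for the 40 tested genes, in falling order; red is higher, blue lower and grey not past the threshold, and dotted lines mark 2-fold changes. OAS1 lies highest at 4.84, SAMD9 at 1.71 is the largest value that did not pass, and HERC5 and UBE2L6 lie below 0.

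OAS enzymes sense double-stranded RNA and make oligoadenylates that trigger RNA decay, OASL lacks that activity and assists RIG-I, and ISG20 is an exonuclease. OAS1 had 41 and 55 counts in FOXD2 cells and 2 and 1 in empty vector cells, a ratio of 30.8 relative to library size (95% interval 10.2 to 152). OASL had 9.57 and 8.37 TPM against 1.52 and 0.94 TPM (2.67, SE 0.18, edgeR adjusted p = 7.4e-19). ISG20 had 10.4 and 8.86 TPM against 2.79 and 2.32 TPM (2.38, SE 0.30). OASL and ISG20 thus had low levels with the empty vector and separated clearly by group. OAS1 did so too, but it passed the filter only through the FOXD2 libraries, so a rise was built into its passing. OAS3 was the most abundant OAS gene in both kinds of cells, with 25.3 and 32.9 TPM in FOXD2 cells and 17.7 and 15.9 TPM in empty vector cells (0.77, SE 0.18, edgeR adjusted p = 0.037). OAS1 and OAS3 stand 5129 bases apart on chromosome 12, and OAS2, beyond OAS3, was not tested: it had 3 and 13 counts against 0 and 1, a ratio of 15.4 (95% interval 2.39 to 646).

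MX proteins are dynamin-like GTPases that trap viral components, and guanylate-binding proteins (GBPs) are GTPases known best as targets of type II interferon. These were scarce. MX1 had 15 and 29 counts in FOXD2 cells and 1 and 5 in empty vector cells (2.78, SE 0.59, edgeR adjusted p = 8.2e-05). GBP2 had 15 and 22 counts against 3 and 1 (3.08, SE 0.64, edgeR adjusted p = 4.9e-05; 0.067 with limma on TPM). Groups were apart in each, at levels of at most 1.53 TPM, but both genes passed the filter only through the FOXD2 libraries. Sizes rested on single libraries: MX1 was at 2.18 without FOXD2 replicate 2, 2.11 without empty vector replicate 1 and 4.20 without empty vector replicate 2, and GBP2 at 4.05 and 2.47 without each of these empty vector libraries in turn. MX2 had 2 and 3 counts against 1 and 1, and GBP1 had 0 and 1 counts against 0 and 0, so neither was tested.

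RSAD2 (viperin) makes a nucleotide that stops viral polymerases, and CMPK2, a mitochondrial kinase, is encoded head to head with it, the genes overlapping by 830 bases. SAMD9 and SAMD9L are neighbouring paralogues that restrict poxviruses and slow cell growth. CMPK2 had 2.04 and 1.75 TPM in FOXD2 cells and 1.0 and 1.05 TPM in empty vector cells (1.15, SE 0.31, edgeR adjusted p = 0.0017). Its groups were apart, although the call was lost without empty vector replicate 2 (adjusted p = 0.059) and with DESeq2 (0.087). RSAD2 had 3 and 9 counts in FOXD2 cells and 0 and 1 in empty vector cells, a ratio of 11.6 (95% interval 1.71 to 494), and was not tested. SAMD9 had 7.23 and 12.1 TPM against 2.93 and 2.80 TPM (1.71, SE 0.38) and did not pass (edgeR adjusted p = 0.062), although its groups were far apart. It passed in each fit without a library (adjusted p at most 0.034), with DESeq2 (1.2e-05) and with limma on TPM (0.0026). SAMD9L was not tested, with 2 and 2 counts against 0 and 0. Set against 3 counts over the empty vector group this is 1.28-fold, with the FOXD2 counts taken as exact, so no rise is shown.

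PARP enzymes attach ADP-ribose to proteins, and PARP9 works in a complex with the ubiquitin ligase DTX3L. All 5 genes of this group rose, against 27.2% of all tested genes. In all 5 the CPM of each FOXD2 library lay above that of each empty vector library, against 38.9% of all tested genes. PARP10 passed the filter only through the FOXD2 libraries, so a rise was built into its passing. PARP9 had 17.01 and 24.9 TPM in FOXD2 cells and 4.52 and 4.0 TPM in empty vector cells (2.04, SE 0.22, edgeR adjusted p = 0.0010). DTX3L had 8.55 and 11.8 TPM against 2.79 and 2.83 TPM (1.81, SE 0.13, edgeR adjusted p = 2.5e-12). These partners overlap on opposite strands, and their counts stood in a ratio (PARP9 to DTX3L) of 1.15 and 1.21 in FOXD2 cells and 1.12 and 0.906 in empty vector cells. PARP14, further along chromosome 3, had 8.36 and 10.7 TPM against 4.91 and 5.14 TPM (0.81, SE 0.09). PARP12, which acts against several RNA viruses, had 20.3 and 25.7 TPM against 8.94 and 9.98 TPM (1.10, SE 0.11). PARP10, a mono-ADP-ribosyltransferase, had 34 and 47 counts in FOXD2 cells and 2 and 1 in empty vector cells, a ratio of 26.0 (95% interval 8.59 to 129). It overlaps GRINA and SPATC1 on the other strand, and a share of their reads in its counts was not tested.

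Of the 5 TRIM and nuclear body genes of this group, 4 were tested and all 4 were higher, against 27.2% of all tested genes. Only TRIM22 rose at least 2-fold, against 8.2% of all tested genes. TRIM22 passed the filter only through the FOXD2 libraries, so a rise was built into its passing. SP100, a component of PML bodies that silences viral DNA, had 36.5 and 36.9 TPM in FOXD2 cells and 22.1 and 24.8 TPM in empty vector cells (0.85, SE 0.08, edgeR adjusted p = 6.5e-13). SP110, a relative of SP100, had 11.4 and 15.4 TPM against 7.21 and 6.75 TPM (0.74, SE 0.15). TRIM21, a cytosolic antibody receptor with ligase activity, had 12.8 and 14.4 TPM against 11.1 and 7.20 TPM (0.63, SE 0.14), a call that was lost with limma on TPM (adjusted p = 0.056). These 3 genes changed by less than 2-fold, with no overlap between groups. TRIM22 had 13 and 15 counts in FOXD2 cells and 3 and 5 in empty vector cells (1.72, SE 0.58, edgeR adjusted p = 0.0095), and the call was lost without FOXD2 replicate 2 (adjusted p = 0.11), without empty vector replicate 1 (0.15), without empty vector replicate 2 (0.063) and with DESeq2 (0.22). It overlaps TRIM5 on the other strand. IFI16, a nuclear DNA sensor, had 1 and 0 counts in FOXD2 cells and 0 and 1 in empty vector cells, so that its RNA was not detectable beyond the limit of 3 counts.

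Among the remaining effectors, the small membrane proteins IFI6 and IFI27, which act at mitochondria and the endoplasmic reticulum, rose strongly. IFI6 had 52.0 and 85.8 TPM in FOXD2 cells and 5.40 and 7.20 TPM in empty vector cells (3.39, SE 0.43, edgeR adjusted p = 0.0091), and was the largest rise among genes of the list with a mean above 10 TPM. IFI27 had 16.8 and 20.1 TPM against 2.62 and 2.26 TPM (2.74, SE 0.34). IFI44, a cytoplasmic protein named for its induction, had 38 and 74 counts in FOXD2 cells and 1 and 6 in empty vector cells (3.91, SE 0.51, edgeR adjusted p = 1.5e-07). IFI44 was at 3.30 without FOXD2 replicate 2, 3.20 without empty vector replicate 1 and 5.54 without empty vector replicate 2. Its neighbour IFI44L, 3650 bases away, was not tested. It had 7 and 12 counts against 0 and 0. Set against 3 counts over the empty vector group this is 6.10-fold, with the FOXD2 counts taken as exact. EPSTI1 had 23 and 25 counts in FOXD2 cells and 3 and 2 in empty vector cells (3.15, SE 0.57, edgeR adjusted p = 4.7e-06). All of these lay apart by group, but IFI44 and EPSTI1 passed the filter only through the FOXD2 libraries. IFI27, over the filter's level in just 1 empty vector library, also needed a FOXD2 library to pass.

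HELZ2, a helicase that coactivates nuclear receptors, had 23.5 and 22.6 TPM in FOXD2 cells and 9.52 and 7.46 TPM in empty vector cells (1.30, SE 0.09, edgeR adjusted p = 1.1e-16). IFI35 had 10.3 and 11.9 TPM against 5.51 and 4.69 TPM (1.09, SE 0.20). RNF213, a giant ubiquitin ligase that coats intracellular bacteria, and LGALS3BP, a secreted glycoprotein, rose by 0.97 (SE 0.08) and 0.86 (SE 0.06) on the log2 scale. LGALS3BP was abundant, with 354 and 375 TPM in FOXD2 cells and 193 and 187 TPM in empty vector cells. PLSCR1, a phospholipid scramblase that hinders virus entry, had 24.3 and 29.1 TPM against 23.5 and 26.7 TPM (0.16, SE 0.12, edgeR adjusted p = 0.24), with overlapping groups. Without FOXD2 replicate 1 it passed (0.34, adjusted p = 0.012). Of the other untested genes, XAF1 had 1 and 1 counts against 0 and 0, APOL6 had 5 and 18 against 5 and 7, and RTP4 had 0 in every library, where 0 counts allow up to 3 counts or between 0.193 and 0.211 CPM.

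Fold changes were also read by level. The 22 tested genes with a mean under 10 TPM over all 4 libraries had a median log2 fold change of 2.38, but they include the 8 that passed the filter only through the FOXD2 libraries. The other 14 had a median of 1.76 (range -0.55 to 2.704), and the 18 genes with a higher mean had 0.91 (range -0.37 to 3.39). IFIT2 among the 14 and IFI27 among the 18 also needed a FOXD2 library to pass the filter. Over all genes that passed the filter's level in an empty vector library the medians were 0.11 for those under 10 TPM and -0.06 for the rest. The difference between the levels was not tested.

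FOXD2 replicate 2 lay above FOXD2 replicate 1 in 35 of the 40 tested genes, against 50.2% of all tested genes, on CPM scaled by TMM factors. In 16 of the 40 the excess was at least 25%, against 9.75% of all tested genes. The median ratio of replicate 2 to replicate 1 was 1.2 for the 40 genes and 1.001 for all tested genes. In the empty vector group 17 of the 40 were higher in replicate 2, against 50.9% of all tested genes, with a median ratio of 0.983. So the FOXD2 libraries differed in the level of these genes, and the empty vector libraries did so less by this ratio. Without FOXD2 replicate 2 the median log2 fold change was 1.202 over 40 tested genes. Without FOXD2 replicate 1 it was 1.55 over 41 tested genes. The filter was rerun in each fit, so these medians do not cover the same genes. The fold changes of IFIT1, IFI6, PARP9, SAMD9 and IFITM1 therefore depend in size on which FOXD2 library is used, while their direction was the same in each.

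**Figure D3:**
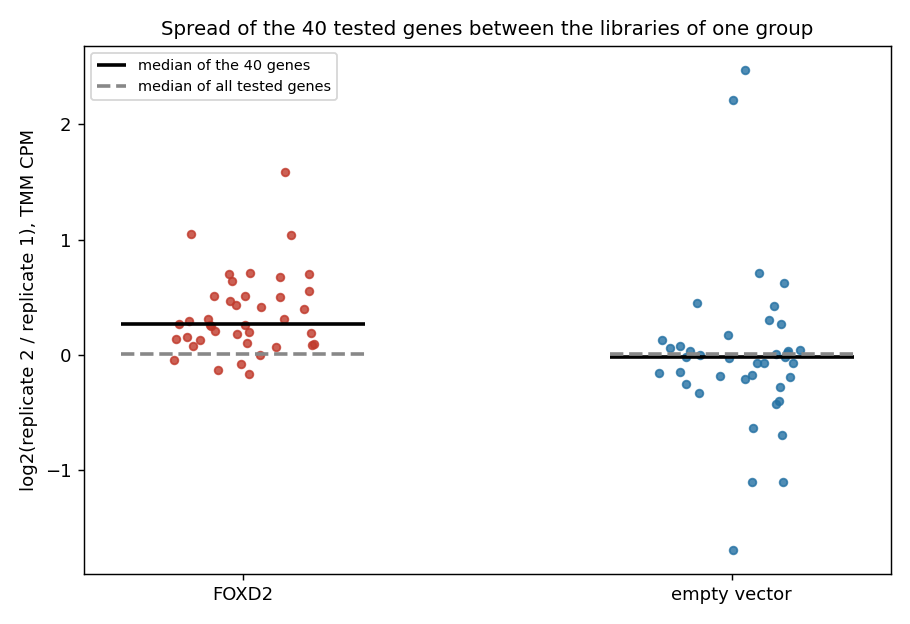
Log2 ratio of replicate 2 to replicate 1 in TMM-scaled CPM for each of the 40 tested genes, within the FOXD2 group (red) and the empty vector group (blue); black bars are medians of the 40 genes and dashed grey bars medians of all tested genes. In the FOXD2 group 35 of the 40 points lie above 0, and in the empty vector group 17 do.

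The promoter matches were set beside the fold changes. Of 23 tested genes with an ISRE core match, 19 were higher, 1 was lower and 3 did not pass, with a median log2 fold change of 1.71 (range -0.55 to 3.91). Of 10 tested genes with a window and no core match, 8 were higher, 1 was lower and 1 did not pass, with a median of 1.03 (range -0.37 to 4.84). Leaving out the genes over the filter's level in the FOXD2 libraries alone, 15 of 19 with a match were higher (median 1.51) and 7 of 9 without one (median 0.97). The letters of the GAS, TTCNNNGAA, were found in 10 of the 40 genes (25%) and in 9.38% of all genes with a window. Leaving out the same genes, 5 of 6 with a GAS match were higher (median 0.95) and 17 of 22 without one (median 1.12). Among all genes over the filter's level in an empty vector library, 26% were higher. IFI27, which also needed a FOXD2 library to pass the filter, is among the 19 with a core match and the 6 with a GAS match. A forkhead motif, TGTTTAC, was found in 3 of the 40 genes (7.5%), CMPK2, SAMD9L and SP100, and in 4.19% of all genes. Both strands of each 300-base window were read, and a match shows no binding.

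**Figure D4:**
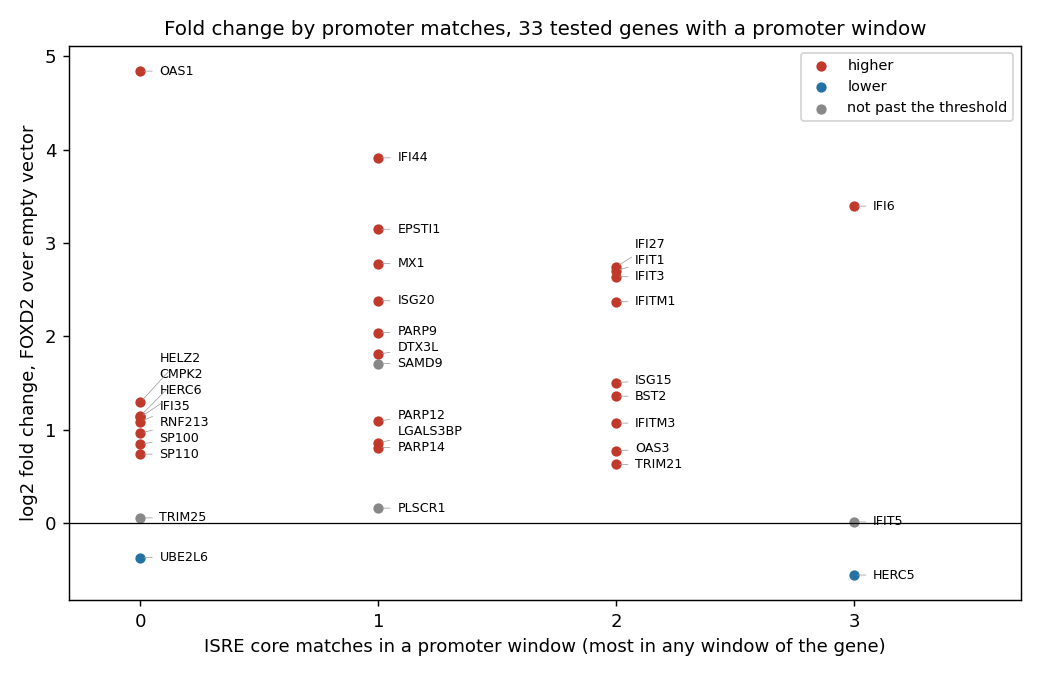
Log2 fold change of FOXD2 over empty vector against the number of ISRE core matches in a promoter window for the 33 tested genes with a window; red is higher, blue lower and grey not past the threshold. The genes with 3 matches, IFI6, IFIT5 and HERC5, lie at 3.39, 0.01 and -0.55, and OAS1 with none lies at 4.84.

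Transcript length, which the tables give per gene as the mean of its isoforms weighted by abundance, was compared as a description. Of 24 of the genes with at least 50 counts in every library, 3 differed by over 10% without overlap between groups, a share near the 10.2% of all 11335 genes with such counts. PARP9 had a weighted length of 3415 and 3397 bases in FOXD2 cells and 4071 and 3766 bases in empty vector cells, and RNF213 had 6621 and 6666 bases against 8083 and 7652 bases. SP100 was longer, with 2445 and 2611 bases against 2293 and 2069 bases. These are estimates from isoform assignment, given without a test. They enter the TPM but not the counts on which the fold changes rest.

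The rest of the pathway was examined from a list of 42 ligands, receptors, transducers, inhibitors and sensors, of which 31 were tested, 13 were higher and 4 lower, where 27.2% of all tested genes were higher and 26.4% lower. No interferon gene was tested. IFNB1, IFNA1, IFNA2, IFNK, IFNG, IFNL1, IFNL2 and IFNL3 had 0 counts in all 4 libraries, and IFNE had 0 and 0 counts in FOXD2 cells and 2 and 3 in empty vector cells. RNA of the listed interferons was thus not detectable in FOXD2 cells at this depth. Of 6 receptor genes, IFNAR2 was lower (-0.41, SE 0.13, edgeR adjusted p = 0.0045) and the other 5 did not pass, and the IFNAR2 call was lost without empty vector replicate 1 (adjusted p = 0.063).

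Of 11 transducers and transcription factors, 6 were higher and 2 lower, against 27.2% and 26.4% of all tested genes. IRF9, the DNA-binding part of the ISRE factor, had 33.1 and 39.6 TPM in FOXD2 cells and 5.52 and 4.21 TPM in empty vector cells (2.80, SE 0.14). IRF7, which amplifies interferon production, had 22.9 and 31.8 TPM against 3.14 and 3.37 TPM (2.84, SE 0.15), and STAT2 had 19.9 and 26.5 TPM against 7.83 and 7.08 TPM (1.47, SE 0.10). TYK2 (0.65) rose less than 2-fold. IRF2, a repressor of the family, passed with 0.44 (edgeR adjusted p = 0.033) but not without FOXD2 replicate 2 (0.20, adjusted p = 0.47), empty vector replicate 1 (adjusted p = 0.12) or empty vector replicate 2 (0.11). JAK1 (-0.19, edgeR adjusted p = 0.017) and IRF5 (-0.33, edgeR adjusted p = 0.027) were lower, each lost without some libraries: JAK1 without FOXD2 replicate 1 (0.070) or empty vector replicate 1 (0.26), and IRF5 without FOXD2 replicate 2 (0.11), empty vector replicate 1 (0.13) or empty vector replicate 2 (0.076).

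Among 9 tested sensors and their partners, 6 were higher, against 27.2% of all tested genes, 2 of them not without FOXD2 replicate 2, and of the other 3 DHX58 (0.58), MAVS (-0.01) and ADAR (0.002) did not pass. The RNA sensors RIGI, with 6.91 and 8.86 TPM in FOXD2 cells and 3.35 and 3.27 TPM in empty vector cells (1.22, SE 0.12), and IFIH1, with 8.60 and 10.7 TPM against 4.38 and 3.19 TPM (1.34, SE 0.14), rose with edgeR adjusted p at most 1.1e-11. STING1, the adaptor of DNA sensing, rose too (0.61). TLR3, an endosomal RNA receptor, had 42 and 100 counts in FOXD2 cells and 35 and 31 in empty vector cells (1.06, edgeR adjusted p = 0.039), and without FOXD2 replicate 2 it was at 0.25 and did not pass (adjusted p = 0.62). The kinase EIF2AK2 (0.25, edgeR adjusted p = 0.044) did not pass without FOXD2 replicate 2 (adjusted p = 0.57) or empty vector replicate 2 (0.051). With DESeq2 and with limma, IRF2, TLR3 and EIF2AK2 did not pass, nor did any of the 4 lower genes with DESeq2 or 3 of them (all but PTPN2) with limma. JAK1 and IRF5 did not pass with library totals as the only scaling (adjusted p = 0.13 and 0.078). Of the 5 inhibitors, IRF2BP2, a corepressor of IRF2, had 105 and 96.8 TPM against 30.0 and 29.01 TPM (1.84, SE 0.07), PTPN2, a phosphatase of STAT proteins, was lower (-0.27, edgeR adjusted p = 0.0048; 0.19 without empty vector replicate 2), and SOCS1, SOCS3 and PIAS1 did not pass.

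**Figure D5:**
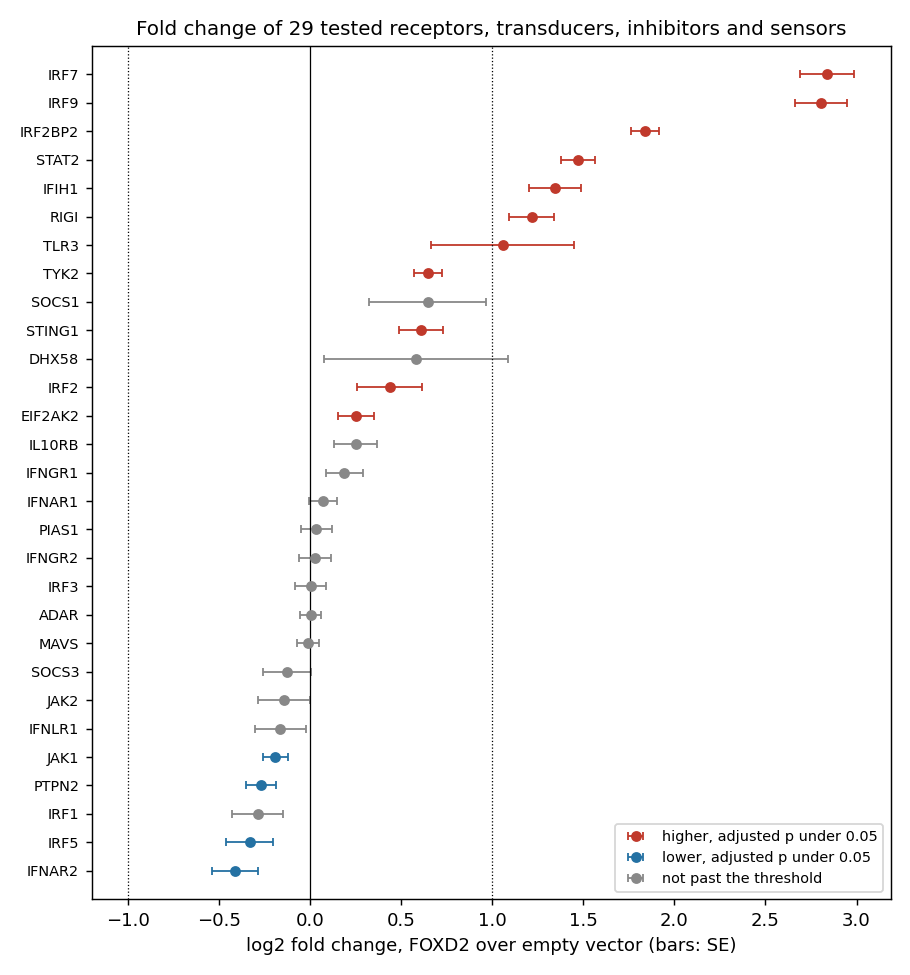
Fitted log2 fold change of FOXD2 over empty vector with its SE for 29 of the 31 tested receptors, transducers, inhibitors and sensors; red is higher, blue lower and grey not past the threshold, and dotted lines mark 2-fold changes. IRF7 at 2.84 and IRF9 at 2.80 lie highest and IFNAR2 at -0.41 lowest.

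Markers of immune cells were read beside these results, since such cells carry interferon-stimulated RNA. The summed level of 9 such markers was 42.6 and 33.3 TPM in FOXD2 cells and 5.67 and 9.02 TPM in empty vector cells, and CD68, a lysosomal gene also made by other cells, held 40.6 and 31.2 TPM of it in FOXD2 cells and 5.13 and 6.59 TPM in empty vector cells. The defining markers PTPRC, CD3E and NKG7 were at 0 counts in all 4 libraries, and CD14 and LYZ had at most 5. The summed level of 6 endothelial and fibroblast markers was 14.3 and 16.2 TPM against 4.41 and 3.28 TPM, nearly all from COL1A1, with COL1A2 at 0 in every library. The summed level of 8 colon epithelial markers was 7539 and 7222 TPM in FOXD2 cells and 3964 and 3972 TPM in empty vector cells, most of it from KRT8, KRT18 and KRT19. In the same list CDX2, an intestinal transcription factor, was lower (-0.51, edgeR adjusted p = 0.0010), and KRT20 was at -0.97 and did not pass (adjusted p = 0.053). The part of these markers in the results was not tested.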

How the data were processed

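Libraries came from TRIzol RNA through mRNA isolation and a directional NEBNext kit, per the labels' protocols. The tools named are STAR (2.7.2b) with RSEM (1.2.31), and the build is GRCh38 (hg38), per the submitters' processing notes; annotation release and strand setting are not given in the sources used here. The authors' tables hold, per the file headers, RSEM expected counts, TPM, weighted gene lengths in bases and the posterior SD of each count. Identifiers were matched to symbols (60370 of 60683) and to GENCODE 29 on GRCh38 (58496), whose gene spans gave distances and overlaps.

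Expected counts were rounded. The edgeR 4.0.16 quasi-likelihood test in R 4.3.3 (TMM, filterByExpr with a minimum count of 10, robust, intercept and group, two-sided) compared FOXD2 with empty vector over 14470 genes, with Benjamini-Hochberg adjustment at 0.05, and was checked on simulated data. Fold changes are fitted on counts, levels are the deposited TPM, and the CPM compared between libraries for tested genes uses TMM-scaled library sizes. CPM on plain library totals is used for the filter's level, the limit of 3 counts and the RNAs without a polyA tail. A group with 1 to 3 counts gets a count ratio with an exact 95% interval. Such intervals and the limit of 3 counts cover counting error only, as PCR copies were not marked by molecular identifiers. A fold against 3 counts, given where the empty vector group had 0, allows for counting error in that group alone. It is therefore not a lower limit of the fold change. The chi-square per degree of freedom was 3.91 between FOXD2 libraries and 2.52 between empty vector libraries, so neither pair agreed within sampling noise.

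A few genes of the pathway and marker lists are counted but not reported here by name. The 50 genes, their roles and the pathway and marker lists were chosen with earlier results of these data known. Each tested gene in a role group of at most 6 is given by library; of the larger group, those past the threshold at 2-fold or more, and those lower or not past it. RNF213, LGALS3BP and pathway genes under 2-fold were named after their values were seen. Alternatives were DESeq2 1.42.0, limma 3.58.1 on log2(TPM + 1), other scaling and filters, a replicate block and leaving out each library.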

Additional observations from a re-analysis of the deposited data

How the results depend on the processing

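Over 12 alternatives the 40 tested genes gave 476 comparisons, of which 447 kept their side of the threshold, 19 lost a call and 10 gained 1. No called gene changed sign, while 3 that did not pass (IFIT5, TRIM25 and PLSCR1) did with a library left out. The count of higher genes ranged from 33 to 36 with a library left out, that of lower genes from 1 to 2, that of at least 2-fold rises from 23 to 28, and the median log2 fold change from 1.202 to 1.55. None of the 50 genes was called at least 2-fold lower under any of these. Lower pathway genes numbered 1 to 3 with a library left out, and higher ones 11 to 13. Over all genes 3146 to 3579 were higher and 3046 to 3650 lower. Such fits take the spread of the lone library from the other group. The filter was rerun in each of them, so that 40 to 43 of the 50 genes were tested.

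With library totals as the only scaling 1 of the 40 was lower, and 2 pathway genes, and the median of all genes moved by 0.07; 4514 genes were then higher and 3104 lower in place of 3929 and 3816. DESeq2 called 2414 genes higher in all, 1 of the 40 lower and 0 pathway genes lower (4 with edgeR; 3 with DESeq2 at an unadjusted p under 0.05; JAK1, PTPN2, IRF5 and IFNAR2 had adjusted p of 0.060, 0.056, 0.21 and 0.089). With limma on log2(TPM + 1), 2442 genes were lower in all, 0 of the 40 (2 at an unadjusted p under 0.05) and 1 pathway gene, and the median of the 40 was 1.01, the pseudocount shrinking low genes. The cause of the other differences was not tested. TRIM21, HERC5, GBP2, BST2 and UBE2L6 (adjusted p = 0.056, 0.088, 0.067, 0.24 and 0.10) lost their calls with limma. The labels give both groups replicates 1 and 2 without saying that a number marks a shared culture, and replicate 1 deviations of the groups correlated at -0.115. A replicate block gave 35 higher and 2 lower of the 40, and SAMD9 passed; with crossed numbers, chosen after seeing the data, it gave 35 and 2. Few counts limit BST2, TRIM22, IFI44, MX1, GBP2, EPSTI1, OAS1 and PARP10.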
